A study of Mus musculus with 43 samples.

Results

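The paraventricular nucleus (PVN) of the hypothalamus was compared between mice fasted for 24 hours and mice fed ad libitum. All mice were adult males of the C57/BL6 strain that carried a deletion of Snord116 on the paternal allele (line B6(Cg)-Snord116tm1.1Uta/J), and since wild-type mice were not analysed here, the fed and fasted groups both carried the deletion. The PVN gave 10 of the 41 libraries analysed, 5 from fasted mice and 5 from fed mice, each from a different mouse. Nuclei were laser captured from frozen sections, RNA was amplified before sequencing, and capture and library preparation ran in 3 batches, with 1 fasted and 1 fed mouse in batch 1 and 2 of each in batches 2 and 3. The fasted mice are called A (batch 1), B and C (batch 2) and D and E (batch 3), the fed mice F (batch 1), G and H (batch 2) and I and J (batch 3), and values are given in that order. Of 10127 genes, 9529 reached 1 CPM (reads scaled to the library's total) in at least 5 of the 10 libraries and were tested. The depth read from the low values was 2.62 to 7.26 M (mega) reads per library.

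The PVN gathers neuroendocrine and pre-autonomic neurons. Its vasopressin and oxytocin cells project to the posterior pituitary, and its Crh and Trh cells drive the adrenal and thyroid axes. It receives input from neurons of the arcuate nucleus that release Npy, Agrp and melanocortin peptides, and its melanocortin 4 receptor cells restrain feeding. Food deprivation lowers leptin and raises circulating corticosterone in mice, and glucocorticoids act on PVN neurons in turn.

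The captured tissue carried the PVN markers. Avp, which encodes vasopressin, lay between 395 and 1475 CPM in the 10 PVN libraries and between 0 and 10.04 CPM in the 31 libraries of the other nuclei. Crh, the corticotropin-releasing hormone gene, lay between 14.5 and 126 CPM in PVN and between 0 and 6.40 CPM elsewhere. Other markers of these cells, such as Oxt, Sim1, Otp and Trh, were not analysed here.

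At an adjusted p under 0.1, 35 of the 9529 genes (0.367%) passed in PVN, with 29 higher (0.304%) and 6 lower (0.063%) in fasted mice. Genes of regulated secretion and synaptic vesicles (Sv2c, Syp, Vgf), metallothioneins (Mt1, Mt2) and a basement membrane collagen (Col4a1) were among those that rose, and a chaperone (Hsph1), RNA-binding proteins (Tardbp, Hnrnpc) and a sterol synthesis enzyme (Msmo1) were among those that fell. In laser-captured tissue, fewer cells of a type and less RNA per cell cannot be told apart. Changes are given as log2 fold changes of CPM + 0.5 from limma with batch as a covariate, with their standard error. Before adjustment, 950 genes (9.97%) had a p under 0.05, 477 of them higher (5.01%) and 473 lower (4.96%) in fasted mice. A log2 fold change above 0 was found for 4845 of the 9529 genes. Fasted and fed libraries did not overlap for 14 of the 35, against 1.31% of all genes tested. As the 35 were picked on these same libraries, this is a description and no support for the calls.

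**Figure D1:**
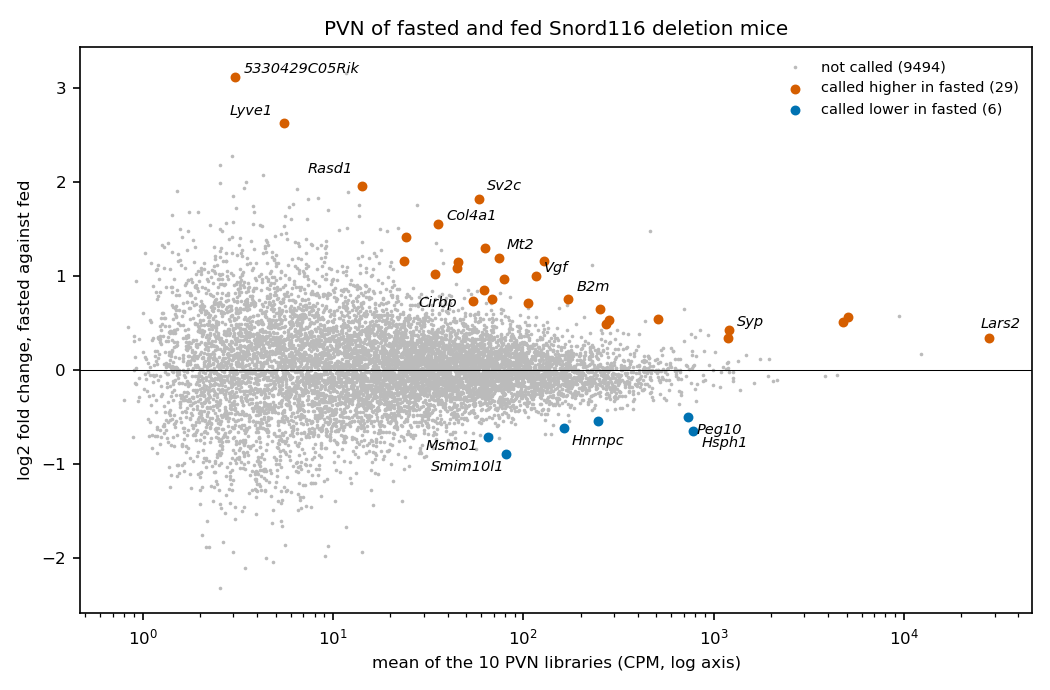
Log2 fold change of each tested gene in PVN (fasted against fed, vertical axis) against its mean CPM over the 10 PVN libraries (horizontal log axis), with the 29 genes that passed as higher in orange, the 6 that passed as lower in blue and the others in grey. Hsph1 lies at a log2 fold change of -0.65 and Sv2c at 1.83.

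The calls leaned on single libraries. The fasted library of mouse A, the only fasted one of batch 1, held the highest fasted value for 26 of the 29 genes that rose, against 32.0% of all genes tested, and the lowest for 4 of the 6 that fell. The fed library of batch 1, mouse F, likewise held the highest fed value for 17 of the 29, and the batch covariate takes up a level that both share. Without mouse A 25 genes passed, 16 of them shared with the 35. Without the fasted library of mouse B only Hsph1 and Sv2c passed, and these 2 genes were also the only ones to pass in each of the 10 fits that left out a library. Without the batch covariate 3 genes passed. On the first principal component of the PVN libraries, which held 24.5% of the variance, batch accounted for 80.5% and nutritional state for 9.74%.

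Sv2c, which encodes a synaptic vesicle glycoprotein, had the smallest p value among the genes that rose. In fasted mice A to E it was at 119, 86.8, 92.6, 63.0 and 92.4 CPM, and in fed mice F to J at 14.7, 24.7, 36.7, 33.6 and 20.7 CPM. Every fasted library lay above every fed one. The log2 fold change was 1.83 ± 0.24 (SE) with an adjusted p of 0.0019, and it was 2.98, 1.56 and 1.51 within batches 1, 2 and 3. Sv2c lies on chromosome 13 of GRCm38, 95954594 to 96132577, minus strand. Over the 10 fits that left out a library its adjusted p was 0.0027 to 0.0206.

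Syp, which encodes synaptophysin, a widely used marker of synaptic vesicles, was at 1630, 1311, 1236, 1339 and 1337 CPM in fasted mice and at 1156, 773, 1159, 973 and 1073 CPM in fed mice. The groups did not overlap, and Syp rose by 0.43 ± 0.09 on the log2 scale (adjusted p = 0.0690), which was lost in 9 of the 10 fits that left out a library, with 0.260 as the highest adjusted p, without fasted mouse B. Nrxn3, which encodes the presynaptic adhesion protein neurexin 3, rose by 0.49 (adjusted p = 0.0665), from 201 to 247 CPM in fed mice to 266 to 436 CPM in fasted mice. Its call was lost in each of the 10 fits that left out a library, with an adjusted p of 0.103 to 0.191. Of 21 measured genes of synaptic vesicle proteins, 2 passed (Sv2c and Syp), both higher, and the median log2 fold change was 0.04, against 0.01 over all genes tested. Among abundant others, Pclo, an active zone scaffold gene, Syt11, a synaptotagmin gene, and Cadps, a priming factor gene of dense-core vesicles, had changes of -0.02, 0.04 and 0.05 (adjusted p = 0.924 to 0.959). The summed CPM of the list was 6351 to 6788 in fasted and 5718 to 6302 in fed libraries, which did not overlap. Without Sv2c and Syp the sums did overlap, at 4799 to 5386 and 4624 to 5159 CPM.

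**Figure D2:**
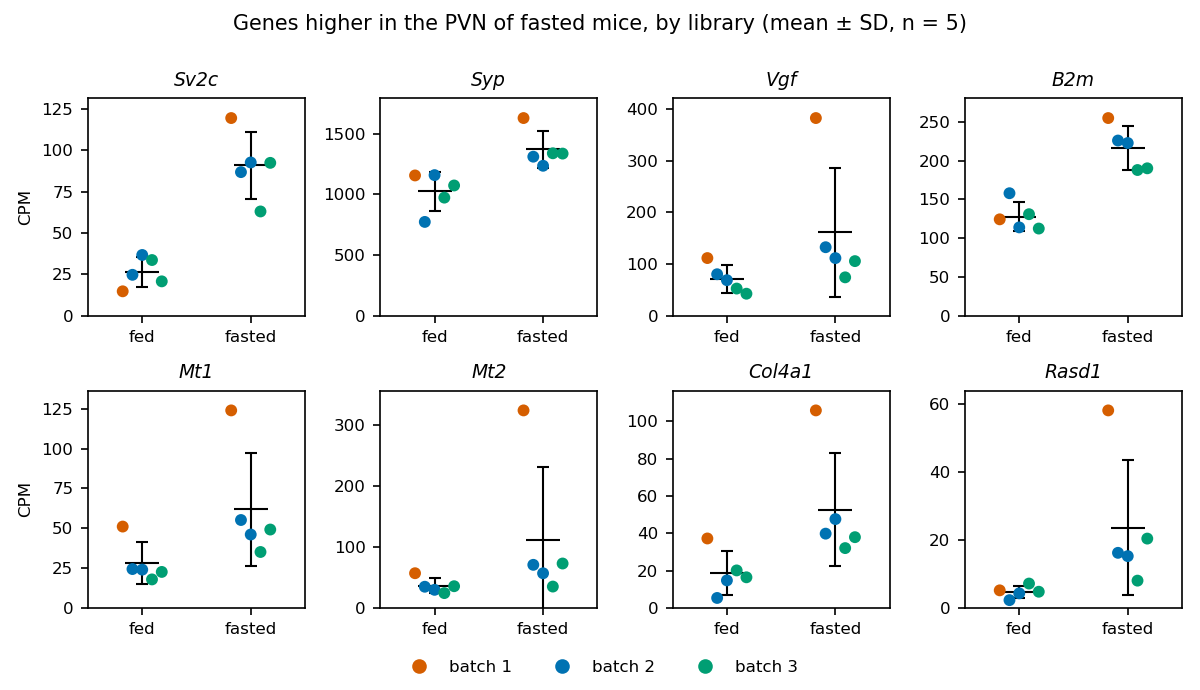
CPM of 8 genes that passed as higher in the PVN of fasted mice, 1 point per library coloured by batch, with the mean and SD of 5 libraries (the lower SD arm of Mt2 ends below the axis). The fasted library of batch 1 is the highest fasted point in each panel, at 119 CPM for Sv2c and 383 CPM for Vgf.

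Among peptide and secretory genes, Vgf rose. It lies on chromosome 5 of GRCm38 (137026392 to 137033351, plus strand) and encodes a precursor of the dense-core granule from which several peptides are cut, some with effects on energy balance. Vgf was at 383, 132, 111.3, 74.1 and 105 CPM in fasted mice and at 111.4, 80.1, 68.6, 52.3 and 42.3 CPM in fed mice. The groups overlapped, with batch 1 the highest in both, and within batches 1, 2 and 3 the difference was 1.78, 0.71 and 0.90. The log2 fold change was 1.00 ± 0.17 (adjusted p = 0.0248), and the adjusted p was 0.151 without fasted mouse B and 0.728 without the batch covariate, with the fold change at 1.01 and 1.00. Of 14 measured peptide genes, Vgf alone passed, 10 of 14 had a log2 fold change above 0 and the median was 0.25 (0.16 without fed mouse J). Avp was at 1475, 1029, 730, 654 and 568 CPM in fasted and 1249, 759, 565, 395 and 580 CPM in fed mice, a change of 0.35 ± 0.12 (adjusted p = 0.310). Pcsk1n, which encodes the inhibitor proSAAS of a prohormone convertase, had a change of 0.40 ± 0.11 (adjusted p = 0.197), and Penk, the enkephalin precursor gene, one of 0.31 ± 0.13 (adjusted p = 0.448). Scg2, Cpe and Scg3, abundant genes of the secretory granule, had changes of 0.12, -0.06 and -0.07 (adjusted p = 0.729 to 0.892). Crh was at 126, 26.3, 24.8, 14.5 and 21.99 CPM in fasted and 39.4, 29.996, 24.3, 30.7 and 30.9 CPM in fed mice. The fasted library of mouse A stood far above the rest for Crh, and the change of -0.01 ± 0.29 (adjusted p = 0.998) differed in sign between batches, at 1.66, -0.08 and -0.77.

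The metallothionein genes Mt1 and Mt2, whose products bind zinc and copper and which metals and glucocorticoids induce, both rose. Mt1 was at 124, 55.2, 46.1, 35.1 and 49.2 CPM in fasted and 51.1, 24.4, 24.0, 17.9 and 22.6 CPM in fed mice, and its change was 1.27, 1.04 and 1.03 within the batches. Mt2 was at 325, 70.9, 57.0, 35.1 and 73.0 CPM in fasted and 57.1, 34.8, 29.8, 24.4 and 35.7 CPM in fed mice, with 2.50, 0.97 and 0.77 within the batches. For each gene the fasted libraries lay above the fed libraries of the same batch, apart from mouse D, whose Mt2 was 35.1 CPM beside 35.7 CPM in fed mouse J. The log2 fold changes were 1.08 ± 0.19 (adjusted p = 0.0275) and 1.20 ± 0.25 (adjusted p = 0.0637). On GRCm38 Mt1 spans 94179082 to 94180327 and Mt2 94172664 to 94173568 of chromosome 8, both on the plus strand. Leaving out a library ended the call of Mt1 in 2 and of Mt2 in 7 of 10 fits.

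The windows of RefSeq (GRCm38.p6) just upstream of both genes, which are neighbours on chromosome 8, are given because both genes rose. Capitals mark the 7-base core of the metal response element (TGCGCNC or TGCACNC, either strand), a motif chosen after the calls were seen.
Mt1 (chr8:94178839-94179081, plus strand): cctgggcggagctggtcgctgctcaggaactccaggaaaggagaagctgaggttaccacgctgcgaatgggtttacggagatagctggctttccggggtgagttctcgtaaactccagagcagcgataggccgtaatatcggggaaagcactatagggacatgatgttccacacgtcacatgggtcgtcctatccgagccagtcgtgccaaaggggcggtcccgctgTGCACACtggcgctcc
Mt2 (chr8:94172368-94172617, plus strand): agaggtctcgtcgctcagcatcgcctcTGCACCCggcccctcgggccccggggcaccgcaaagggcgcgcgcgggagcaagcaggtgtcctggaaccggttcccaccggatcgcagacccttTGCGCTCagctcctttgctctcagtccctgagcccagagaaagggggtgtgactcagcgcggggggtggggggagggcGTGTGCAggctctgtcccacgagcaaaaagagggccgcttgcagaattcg
The stretch of Mt1 held 1 match and that of Mt2 held 3. With the bases up to 50 after the start included, Mt1 held 3 and Mt2 held 4. Of 26 genes called in PVN that had a promoter window (250 bases before to 50 after the start), 13 (50%) held either core, as did 28.2% of 27025 genes with a window. The 26 include rises and falls. Other lists also exceeded that share, at 10 of 24 chaperone genes (41.7%) and 6 of 13 cholesterol synthesis genes (46.2%). Of 7 glucocorticoid-responsive genes with a window, 2 (28.6%) held either core. A palindromic glucocorticoid response element (AGAACA, any 3 bases, TGTTCT) was in 0 of the 26 windows and in 3 of all genes with a window.

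Rasd1, which encodes a Ras-like GTP-binding protein that dexamethasone induces, was at 58.0, 16.2, 15.2, 8.02 and 20.4 CPM in fasted and 5.16, 2.29, 4.28, 7.16 and 4.76 CPM in fed mice. The groups did not overlap, although mouse D at 8.02 CPM stood close to fed mouse I at 7.16 CPM, and Rasd1 rose by 1.96 ± 0.41 (adjusted p = 0.0637). It lost the call in 8 of 10 fits without a library. Of 10 measured glucocorticoid-responsive genes, 3 passed (Mt1, Mt2 and Rasd1), 9 had a log2 fold change above 0, and the median was 0.79. Over all 9529 genes tested, 0.304% passed as higher and 4845 had a change above 0. The median of this list was also above 0 in the arcuate nucleus (0.66), the dorsomedial hypothalamus (0.49) and the ventromedial hypothalamus (0.46). Zbtb16, a zinc finger transcription factor gene, was at 5.34 to 46.7 CPM in fasted and 2.80 to 14.5 CPM in fed mice, a change of 1.51 ± 0.48 (adjusted p = 0.273). Klf9, a Krüppel-like factor gene, had a change of 0.50 (adjusted p = 0.399), Gjb6, the astrocyte connexin 30 gene, one of 0.55 (adjusted p = 0.350), Sult1a1, a sulfotransferase gene, one of 1.03 (adjusted p = 0.431) and Errfi1, a feedback inhibitor of the EGF receptor, one of 0.45 (adjusted p = 0.438). Tsc22d3, which encodes the glucocorticoid-induced leucine zipper, had a change of 0.42 (adjusted p = 0.539), or 0.15 to 0.54 with each library left out. The summed CPM of the 10 genes was 329 to 913 in fasted and 257 to 314 in fed libraries, and without the 3 genes that passed it was 251 to 406 and 199 to 244, so neither sum overlapped between groups. The fasted library of mouse A held the highest of these sums, and astrocyte markers, whose list shares Gjb6, summed to 682 CPM in it against 397 to 479 CPM in the other fasted and 326 to 509 CPM in the fed libraries. Their part in the result was not tested.

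Col4a1, which encodes a collagen of basement membranes, was at 106, 39.8, 47.6, 32.1 and 37.9 CPM in fasted and 37.2, 5.34, 14.8, 20.1 and 16.4 CPM in fed mice. The groups overlapped only through fed mouse F, and Col4a1 (chromosome 8, 11198423 to 11312826, minus strand, GRCm38) rose by 1.56 ± 0.29 (adjusted p = 0.0356). Igfbp7, an insulin-like growth factor binding protein gene that is strong in vessels, was at 139, 62.4, 35.4, 32.1 and 57.5 CPM in fasted and 27.4, 25.4, 23.6, 22.2 and 27.8 CPM in fed mice. The groups did not overlap, and Igfbp7 rose by 1.15 ± 0.26 (adjusted p = 0.0855). F2r, the thrombin receptor gene, rose by 1.03 ± 0.21 (adjusted p = 0.0637), from 17.8 to 27.1 CPM to 37.7 to 55.2 CPM, with no overlap. Lyve1, a hyaluronan receptor gene of perivascular macrophages and lymphatic vessels, rose by 2.63 ± 0.56 (adjusted p = 0.0637). It was at 38.6, 5.57, 2.61, 3.82 and 1.82 CPM in fasted and 1.63, 0, 0.476, 0.138 and 0.714 CPM in fed mice. The groups did not overlap, but mouse A stood far above the other fasted mice. With a pseudocount of 2 CPM the rise of Lyve1 was 1.65. The call was lost in 9 of 10 fits without a library, and the adjusted p reached 0.255 without mouse A.

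B2m, the light chain of class I histocompatibility molecules, was at 255, 226, 223, 188 and 190 CPM in fasted and 124, 158, 114, 131 and 112 CPM in fed mice. The groups did not overlap, and B2m rose by 0.76 ± 0.12 (adjusted p = 0.0198), and without fasted mouse B the rise was also 0.76 but its adjusted p 0.151. Lifr, the receptor gene of leukemia inhibitory factor, rose by 0.75 ± 0.16 (adjusted p = 0.0637), from 44.2 to 57.4 CPM to 69.8 to 116 CPM. Of 17 measured vessel markers, 0 passed, the median was 0.12 and 3 had an unadjusted p under 0.05, among them the pericyte potassium channel gene Kcnj8 (2.01 ± 0.57, adjusted p = 0.230) and the endothelial receptor gene Kdr (0.87, adjusted p = 0.469). Their summed CPM was 414 to 615 in fasted and 385 to 452 in fed libraries, with 615 CPM in mouse A. Of 7 perivascular macrophage and meningeal markers tested, Lyve1 alone passed, the median was 0.15 (-0.10 to 0.47 with each library left out) and the list summed to 34.8 to 109 CPM in fasted, with 109 CPM in mouse A, and 29.5 to 69.3 CPM in fed libraries. No vessel or perivascular marker in the table was at 0 in all PVN libraries, which held for the members of each other list too. The part of vessel and perivascular cells in the changes of Col4a1, Igfbp7 and F2r was not tested.

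Hsph1, which encodes a heat-shock protein of the Hsp110 family that exchanges nucleotide on Hsp70, was the clearest fall. It was at 576, 569, 548, 678 and 665 CPM in fasted and 889, 993, 975, 978 and 909 CPM in fed mice. The highest fasted library lay well below the lowest fed one, and the log2 fold change was -0.65 ± 0.08 (adjusted p = 0.0019), with -0.63, -0.82 and -0.49 within the batches. Hsph1 lies on chromosome 5 of GRCm38, 149614287 to 149636376, minus strand. In no fit was its call lost, and its adjusted p was highest without the batch covariate, at 0.0560. Of 28 measured chaperone genes Hsph1 alone passed, 10 had a log2 fold change above 0 and the median was -0.11. Cct7, a subunit gene of the cytosolic chaperonin, had a change of -0.42 ± 0.11 (adjusted p = 0.155) and Ptges3, an Hsp90 co-chaperone gene, one of -0.28 (adjusted p = 0.495). The abundant genes Dnajc5, a co-chaperone of synaptic vesicles, and Tcp1, another chaperonin subunit, had changes of -0.15 and -0.13 (adjusted p = 0.651 and 0.763). In the other direction, Hyou1, an endoplasmic reticulum relative of Hsph1, had a change of 0.33 (adjusted p = 0.259), Dnajb5 one of 0.83 (adjusted p = 0.259), which was 0.46 without mouse A or F, and Unc45a one of 0.92 (adjusted p = 0.412). The summed CPM of the list was 3098 to 3164 in fasted and 3395 to 3724 in fed libraries, and without Hsph1 it was 2440 to 2603 and 2506 to 2749, which overlapped.

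The window of Hsph1 held a heat-shock element (GAA, any 2 bases, TTC, any 2 bases, GAA, either strand), which is shown because Hsph1 was the fall that no fit removed. Capitals mark the element, which lies in the first exon, in this 30-base stretch.
Hsph1 (chr5:149636279-149636308, minus strand): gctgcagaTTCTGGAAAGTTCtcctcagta
Among the chaperone genes with a window 3 of 24 (12.5%) held the element, namely Hsph1, Hspe1 and Dnajb6, as did 0.662% of all genes with a window. Of the 26 called genes Hsph1 alone held it.

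Tardbp, which encodes the RNA-binding protein TDP-43, was at 116, 214, 226, 235 and 222 CPM in fasted and 187, 328, 284, 363 and 308.3 CPM in fed mice. Batch 1 was low in both groups, so the groups overlapped, and within the batches the difference was -0.69, -0.47 and -0.55. Tardbp (chromosome 4, 148612382 to 148627019, minus strand, GRCm38) fell by 0.55 ± 0.10 (adjusted p = 0.0390), and lost the call in 3 of 10 fits without a library. Hnrnpc, a core protein gene of heterogeneous nuclear ribonucleoproteins, was at 100.6, 146, 131, 136 and 126.9 CPM in fasted and 147, 182, 231, 234 and 196 CPM in fed mice, which did not overlap, and fell by 0.62 ± 0.12 (adjusted p = 0.0422). Of 25 measured hnRNP and splicing factor genes Hnrnpc alone passed, 12 had a change above 0 and the median was -0.02. The most abundant others, Hnrnpu, Srsf2, Hnrnpa1 and Hnrnpa3, had changes of -0.11, -0.19, -0.21 and 0.02 (adjusted p = 0.527 to 0.977). Cirbp, the cold-inducible RNA-binding protein gene, rose by 0.74 ± 0.17 (adjusted p = 0.0855). It was at 36.5, 77.0, 72.6, 71.4 and 81.5 CPM in fasted and 23.4, 37.1, 38.8, 51.6 and 51.1 CPM in fed mice, and only the fasted mouse of batch 1 lay within the fed range. Rbm3, the other classic cold-shock gene, had a change of 0.54 ± 0.25 (adjusted p = 0.499) and Rbmx, a related gene, one of 0.29 (adjusted p = 0.514). Of these 3 measured genes 1 passed and the median was 0.54.

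**Figure D3:**
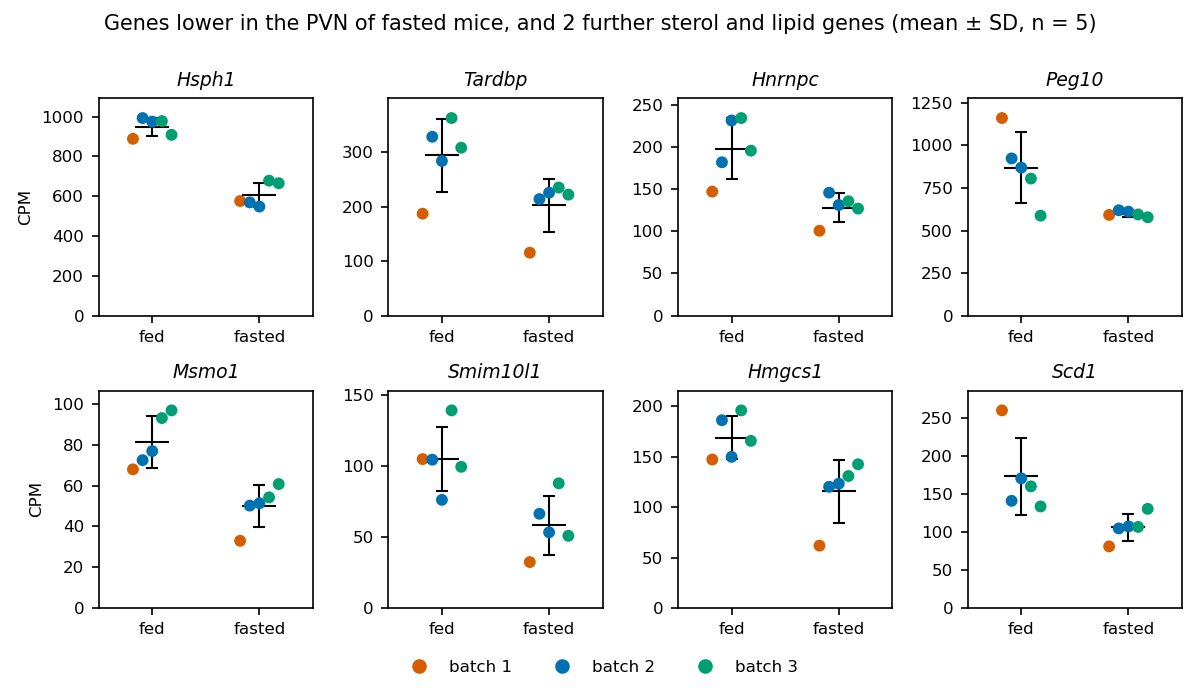
CPM of the 6 genes that passed as lower in the PVN of fasted mice, and of Hmgcs1 and Scd1, which did not pass, 1 point per library coloured by batch with the mean and SD of 5 libraries. Fasted Hsph1 points lie between 548 and 678 CPM, below fed points at 889 to 993 CPM.

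Msmo1, a methylsterol monooxygenase of cholesterol synthesis, was at 32.9, 50.2, 51.3, 54.2 and 60.7 CPM in fasted and 67.9, 72.4, 76.9, 93.1 and 96.8 CPM in fed mice. The groups did not overlap, and Msmo1 (chromosome 8, 64718139 to 64733792, minus strand, GRCm38) fell by 0.72 ± 0.15 (adjusted p = 0.0665), a call lost in 9 of 10 fits without a library. Of 17 measured genes of cholesterol synthesis and sterol regulation Msmo1 alone passed, 6 had a change above 0, and the median was -0.23. For Hmgcs1, the synthase at the head of the pathway, fasted mice were at 61.8 to 143 CPM and fed mice at 147 to 196 CPM, with no overlap and a change of -0.59 ± 0.14 (adjusted p = 0.119). For Scd1, a fatty acid desaturase, fasted mice were at 80.9 to 130 CPM and fed mice at 133 to 260 CPM, also with no overlap, and the change was -0.68 ± 0.17 (adjusted p = 0.149). Insig1, which holds the sterol sensor in the endoplasmic reticulum, had a change of -0.45 (adjusted p = 0.288), Idi1, an isomerase, one of -0.68 (adjusted p = 0.337), Dhcr7, which catalyses the last step, one of -0.47 (adjusted p = 0.470), and Scap, the escort of the sterol-regulated transcription factors, one of 0.40 (adjusted p = 0.471). The fatty acid elongases Elovl5 and Elovl6 had changes of 0.09 and 0.06 (adjusted p = 0.883 and 0.943). No overlap was seen for 3 of the 17 genes, all lower, against 0.609% of all genes tested. The summed CPM of the list was 888 to 1027 in fasted and 1066 to 1193 in fed libraries, and without Msmo1 it was 848 to 966 and 969 to 1115, so neither sum overlapped.

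The sterol regulatory element core (TCAC, any base, CCAC, either strand) was found in the window of 1 of 13 such genes that had one, Hmgcs1, and in 1.44% of all genes with a window. It is shown in capitals in a 30-base stretch that ends 118 bases before the start.
Hmgcs1 (chr13:119690204-119690233, plus strand): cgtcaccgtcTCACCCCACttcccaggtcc
The window of Msmo1 did not hold these letters.

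The remaining falls were in Peg10 and Smim10l1. Peg10, an imprinted gene derived from a retrotransposon, was at 592, 619, 611, 594 and 578 CPM in fasted and 1161, 924, 870, 805 and 587 CPM in fed mice. Fed mouse J lay among the fasted mice, and Peg10 fell by 0.50 ± 0.11 (adjusted p = 0.0665). Smim10l1 was at 32.3, 66.3, 53.3, 87.8 and 50.8 CPM in fasted and 105, 104, 76.2, 139 and 99.4 CPM in fed mice. Mouse D and fed mouse H brought the groups to overlap, and Smim10l1 fell by 0.89 ± 0.20 (adjusted p = 0.0855). Both lost the call in 8 of 10 fits without a library.

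Further genes rose. The lincRNA 5330429C05Rik was at 8.13, 5.31, 4.78, 6.49 and 4.24 CPM in fasted mice and at 0, 0, 1.43, 0 and 0.238 CPM in fed mice, with no overlap. It rose by 3.12 ± 0.56 (adjusted p = 0.0279), a value that depends on the pseudocount, at 1.75 with 2 CPM and 3.82 with 0.25 CPM, since 3 of the 5 fed libraries held no read. Srxn1, which encodes sulfiredoxin of the oxidative stress response, was at 289, 159, 138, 100.8 and 206 CPM in fasted and 48.9, 59.0, 76.4, 117 and 90.4 CPM in fed mice. Mouse D at 100.8 CPM and fed mouse I at 117 CPM brought the groups to overlap, and Srxn1 rose by 1.16 ± 0.25 (adjusted p = 0.0637). Ppox, an enzyme gene of haem synthesis, was at 32.1, 40.6, 27.2, 28.6 and 33.9 CPM in fasted and 13.04, 9.91, 20.2, 15.0 and 14.3 CPM in fed mice. With no overlap, it rose by 1.16 ± 0.26 (adjusted p = 0.0855). Bmyc, a gene related to Myc, was at 216, 64.5, 68.7, 62.2 and 45.2 CPM in fasted and 70.1, 13.98, 35.2, 29.1 and 28.3 CPM in fed mice, with the highest value of each group in batch 1, and rose by 1.30 ± 0.23 (adjusted p = 0.0275). Agfg2 was at 67.9, 28.1, 47.0, 23.7 and 15.1 CPM in fasted and 16.03, 10.9, 15.5, 5.92 and 12.6 CPM in fed mice. Mouse E alone among the fasted mice lay within the fed range, and Agfg2 rose by 1.42 ± 0.30 (adjusted p = 0.0637). Pdk2, a pyruvate dehydrogenase kinase gene that limits glucose oxidation, rose by 0.72 ± 0.15 (adjusted p = 0.0637), from 54.5 to 160 CPM to 100 to 182 CPM. Cited2, a transcriptional coregulator gene, rose by 0.85 ± 0.17 (adjusted p = 0.0524), and Preb by 0.97 ± 0.19 (adjusted p = 0.0461). For this pair, the fasted library of mouse A was at 159 and 262 CPM against 56.9 to 68.2 and 56.5 to 90.2 CPM in the other fasted mice. Rnasek rose by 0.54 (adjusted p = 0.0422), Tns1, a tensin gene of cell adhesions, by 0.55 (adjusted p = 0.0832) and Disp2 by 0.34 (adjusted p = 0.0734).

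Lars2 and 2 features without a symbol were the most abundant of the 35. Lars2, the mitochondrial leucyl-tRNA synthetase gene, was at 67868, 25105, 20197, 20268 and 19201 CPM in fasted and 61250, 17084, 19997, 13533 and 14690 CPM in fed mice. It was high in both libraries of batch 1, and its change of 0.34 ± 0.07 had an adjusted p of 0.0540. ENSMUSG00000083696 rose by 0.56 (adjusted p = 0.0198) and ENSMUSG00000089855 by 0.51 (adjusted p = 0.0248), or by 0.275 and 0.102 on quantile scaling. These 3 together took 9.23% of the CPM of fasted mouse A and 7.72% of fed mouse F, against 1.88% to 3.60% in the other 8 libraries. Since CPM share a total, this share moves with the values of all other genes in batch 1, and its part in them was not tested.

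Genes of the leptin and melanocortin pathway that could be measured did not pass in PVN. Npy was at 1.82 to 9.93 CPM in fasted and 1.63 to 2.85 CPM in fed mice (0.54 ± 0.51, adjusted p = 0.784), Lepr, the leptin receptor gene, at 3.72 to 16.1 and 4.28 to 7.85 CPM (0.30 ± 0.45, adjusted p = 0.886) and Mc4r, the melanocortin 4 receptor gene, at 5.04 to 17.8 and 6.79 to 17.6 CPM (-0.06 ± 0.39, adjusted p = 0.980). Of 20 measured receptors and ligands of feeding and stress, 0 passed, 6 had a change above 0 and the median was -0.22. The most abundant of them, Ntrk2, Gpr101, Cckar and Htr2c, which encode the receptor of Bdnf, an orphan receptor, a cholecystokinin receptor and a serotonin receptor, had changes of 0.00, -0.28, -0.34 and -0.39 (adjusted p = 0.350 to 1.00). Npy5r, a receptor for Npy, was at 0, 0.531, 3.91, 0.382 and 1.21 CPM in fasted and 7.34, 6.86, 4.76, 1.51 and 7.85 CPM in fed mice (-2.11 ± 0.61, adjusted p = 0.239), and its neighbour Npy1r was at 14.4 to 35.5 and 27.4 to 47.8 CPM (-0.67 ± 0.26, adjusted p = 0.401). Brs3, the bombesin-like receptor 3 gene, had a change of -1.60 (adjusted p = 0.350), Bdnf, the neurotrophin gene, one of -0.65 (adjusted p = 0.495) and Cckbr, a cholecystokinin receptor gene, one of -1.496 (adjusted p = 0.499), which was -0.47 without mouse A or F. Oprm1, the mu opioid receptor gene, had a change of 0.70 (adjusted p = 0.374).

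**Figure D4:**
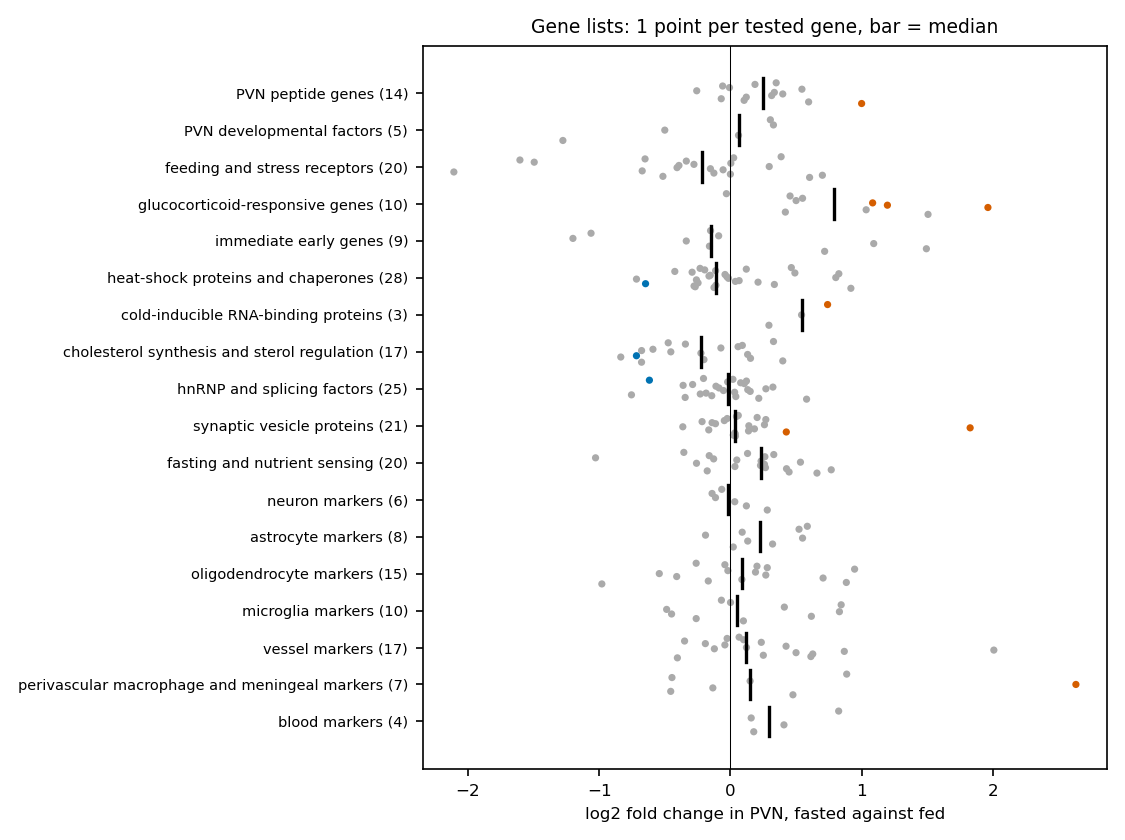
Log2 fold changes in PVN of the tested members of 18 gene lists, 1 point per gene and the median as a black bar, with genes that passed as higher in orange and as lower in blue and the number tested in parentheses. The bars run from -0.23 for cholesterol synthesis and sterol regulation to 0.79 for glucocorticoid-responsive genes.

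Of 27 gene lists described, 19 held no gene that passed. Among 5 developmental factors of the PVN, 0 passed and the median was 0.06 (-0.11 to 0.24 with each library left out), with Nhlh2, a transcription factor gene of prohormone processing, at 19.6 to 27.9 CPM in fasted and 16.3 to 22.03 CPM in fed mice (0.33 ± 0.24, adjusted p = 0.707), Pou3f2 at a change of -0.50 (adjusted p = 0.253), Dlk1 at 0.30 (adjusted p = 0.253) and Sim2 at -1.28 (adjusted p = 0.331). Among 9 immediate early genes 0 passed and the median was -0.15 (-0.34 to -0.031 with each library left out, and 0.011 with library weights), with Npas4 at a change of 1.49 (adjusted p = 0.418), Ier5 at -1.20 (adjusted p = 0.358) and Jun at -0.34 (adjusted p = 0.495). The abundant members Egr1, Fosl2 and Jund had changes of -0.15, -0.09 and -0.16 (adjusted p = 0.863 to 0.893). Among 20 genes of nutrient sensing 0 passed and the median was 0.23 (0.11 without mouse A or F). The closest of these to the threshold was Ucp2, a mitochondrial uncoupling protein gene, at 79.0 to 421 CPM in fasted and 77.6 to 209 CPM in fed mice (0.66 ± 0.16, adjusted p = 0.108), and Irs4, an insulin receptor substrate gene, had a change of -0.26 (adjusted p = 0.438). Ppargc1a, a coactivator gene of mitochondrial biogenesis, and Atf4, a factor of the amino acid response, had changes of 0.23 and 0.13 (adjusted p = 0.688 and 0.826). Of the 18 GABA and glutamate receptor genes 0 passed, and the median was -0.06. Gabrg3 had the smallest p value of these, with a change of -0.53 (adjusted p = 0.230). Among 6 thyroid axis genes 0 passed and the median was -0.20 (-0.036 without mouse A or F), and among 13 circadian clock genes 0 passed and the median was -0.07. Agt, the angiotensinogen gene of astrocytes, had a change of 0.59 (adjusted p = 0.256) and Ly6c1, an endothelial gene, one of 0.63 (adjusted p = 0.446). Median changes of the cell type markers were -0.02 for 6 neuron, 0.23 for 8 astrocyte, 0.09 for 15 oligodendrocyte, 0.05 for 10 microglia, 0.29 for 4 blood and -0.16 for 5 genes of other hypothalamic nuclei and the thalamus, with 0 passing in each. The last median was 1.00 with a filter of 5 CPM. Among ventromedial markers, mean CPM in fasted and fed PVN libraries was 12.2 and 5.27 for Fezf1. It was 2.67 and 4.35 for Zfp831 and 3.12 and 6.29 for Gpr149. The median was 0.06 for 63 ribosomal protein genes, 0.06 for 35 respiratory chain genes, -0.03 for 19 proteasome genes and -0.05 for 9 tubulin genes. Of 4 ependyma, tanycyte and choroid plexus markers tested, 0 passed, 2 had a change above 0 and the median was 0.25. The 7 in the table summed to 28.9 to 50.9 CPM in fasted and 19.3 to 22.6 CPM in fed libraries, without overlap, at low levels. Of the 27 lists, 5 had sums that did not overlap.

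Whether a fasting change was particular to PVN was tested as the PVN change minus the mean change of the arcuate nucleus (ARC), dorsomedial hypothalamus (DMH) and ventromedial hypothalamus (VMH), over all 41 libraries. Sv2c alone of 9529 genes (0.0105%) passed. Beside 1.83 in PVN, its log2 fold change was 0.38 (ARC), 0.01 (DMH) and 0.52 (VMH). The difference was 1.496 ± 0.28 and the adjusted p 0.0277. With the mouse as a block, since nuclei came from the same mice, the difference was 1.48 with an adjusted p of 0.0335. It lost the call without fasted mouse A (adjusted p = 0.148), fasted mouse E (0.137) or fed mouse F (0.111), and without batch (0.102). Of the 35 genes called in PVN, 24 had an unadjusted p under 0.05 for this difference, against 5.39% of all genes, and as the PVN change enters both this is a description. Stra6, a receptor gene for retinol transport, and Aard came next, both with an adjusted p of 0.180. Stra6 was at 0.763 to 15.3 CPM in fasted and 0 to 3.57 CPM in fed PVN libraries and its difference from the other nuclei was 3.72 ± 0.84. Aard was at 10.9 to 19.9 CPM and 0.543 to 10.2 CPM, with no overlap, and differed by 2.21 ± 0.50. Col4a1 had a difference of 1.61 ± 0.37 with the same adjusted p, 0.180.

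**Figure D5:**
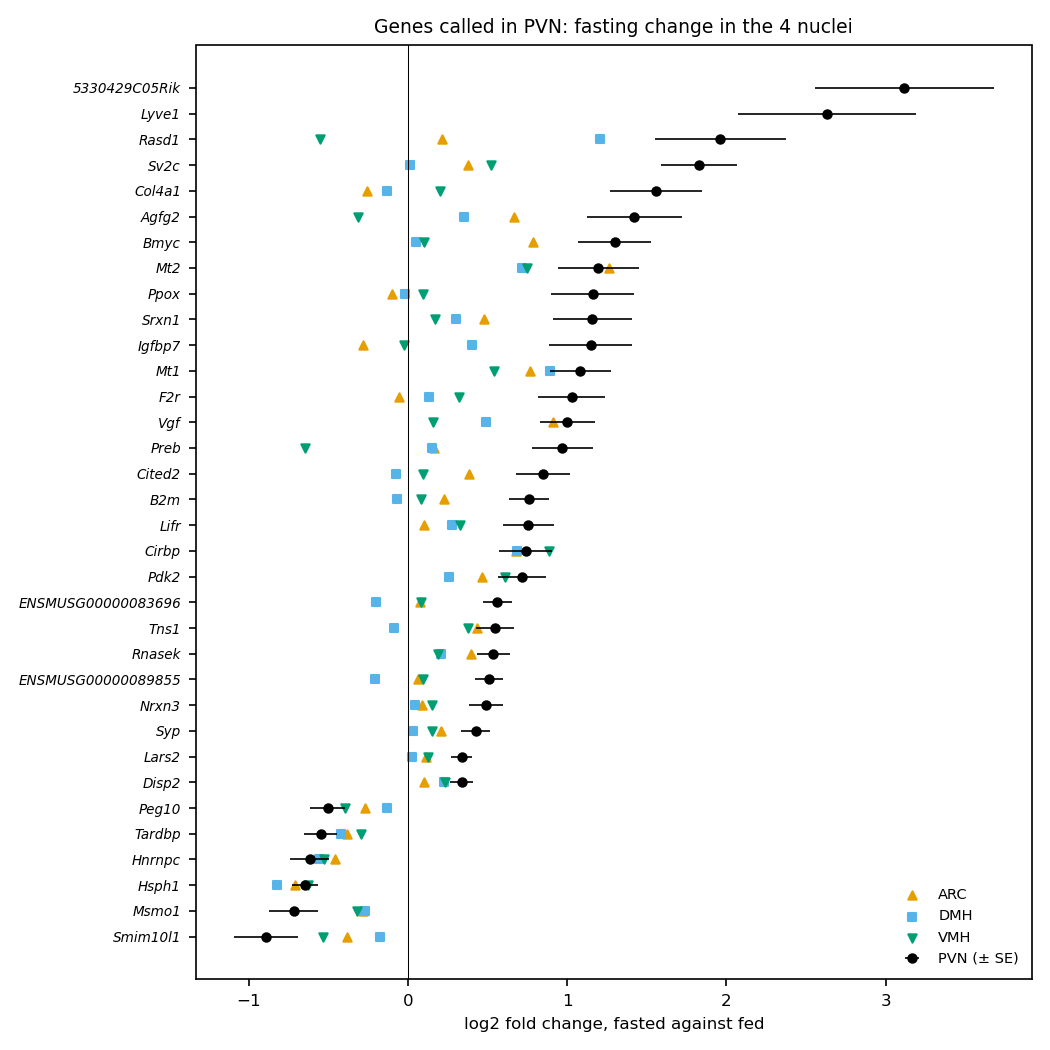
Log2 fold changes (fasted against fed) of the genes called in PVN that are named here, with PVN as black circles ± SE and ARC, DMH and VMH as orange triangles, blue squares and green inverted triangles, where a gene was tested in that nucleus. Sv2c stands at 1.83 in PVN and between 0.01 and 0.52 in the other nuclei, whereas Hsph1 lies between -0.82 and -0.63 in all 4.

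Given in the order ARC, DMH and VMH, Hsph1 had changes of -0.71, -0.82 and -0.63 and passed in each, where 0.176%, 0.0103% and 0.0208% of all genes passed. Mt1 had 0.76, 0.89 and 0.54, Mt2 1.26, 0.72 and 0.75, Cirbp 0.68, 0.68 and 0.89 and Hnrnpc -0.46, -0.56 and -0.53. Of these, Mt2 passed in ARC (adjusted p = 0.0823). Vgf, at 0.91, 0.49 and 0.16, passed in ARC (adjusted p = 0.0867). Col4a1 had -0.25, -0.13 and 0.20, Ppox -0.10, -0.02 and 0.09, Igfbp7 -0.28, 0.40 and -0.02, B2m 0.23, -0.07 and 0.08 and F2r -0.06, 0.13 and 0.32, and none of these passed in another nucleus, as Mt1, Cirbp and Hnrnpc did not. For the difference of PVN from the other nuclei, the adjusted p was 0.180 for Col4a1, 0.477 for Ppox, 0.615 for Igfbp7, 0.546 for B2m and 0.817 for F2r, so none was shown to differ. Of 33 genes called in PVN that were tested in each of the others, 15 in ARC, 9 in DMH and 13 in VMH had an unadjusted p under 0.05 in the direction of PVN, and 0, 2 and 1 in the opposite one. Over all genes tested there, 8.1% in ARC had an unadjusted p under 0.05 (4.39% higher and 3.71% lower), 6.62% in DMH (3.1% and 3.53%) and 6.98% in VMH (3.43% and 3.55%). Since the 4 nuclei share mice, these counts are not independent of the PVN result.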

How the data were processed

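RNA sequencing was performed on laser-captured PVN of fasted and fed Snord116 deletion mice. Per the labels and the methods, total RNA was amplified (Ovation RNA-Seq V2), single-end reads were mapped to GRCm38, and the submitters' processing notes name CASAVA 1.7, TopHat2 2.0.11, Cufflinks 2.2.1, edgeR and limma. The program that counted reads and its use of strand are not given in the sources used here, so near-identical, overlapping and antisense genes may share reads. Libraries that stood apart in multidimensional scaling had been removed by the study, which can make the spread between libraries too small. The values the authors deposited were CPM, reads scaled to the total of a library, for 10127 Ensembl genes, of which 9891 had a symbol and coordinates in GENCODE M21. No identifier between ENSMUSG00000000861 and ENSMUSG00000028747 was in the table, so 6725 annotated genes in that range were not analysed here. Of the columns, 41 were matched to 1 of the 43 samples by nucleus, state and mouse number, and 2 further columns, named as ARC, fitted the labels of no sample and were left out. They carry the mouse numbers of 2 PVN samples of batch 1, 1 fasted and 1 fed, which were not analysed here.

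Depth was read from the step of the low values, of which 97.6% to 98.5% were whole multiples within 0.05 reads in PVN. Some positive values lay far under the worth of 1 read, so the reads could not be rebuilt for a count test. Low values rest on a handful of amplified reads, which are not independent molecules.

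Log2(CPM + 0.5) was fitted with limma 3.58.1 in R 4.3.3 (lmFit, eBayes with trend) on fasted state and batch, over genes with at least 1 CPM in at least 5 PVN libraries. Tests were 2-sided, with Benjamini-Hochberg adjustment over all genes tested and a threshold of 0.1 as in the study's methods. Fold changes of low genes are understated on this scale. The contrast of PVN with the other nuclei was fitted over 41 libraries with 8 group means and batch. Mouse numbers mark the same animal, and 29 pairs of libraries of 1 mouse had correlations of -0.03 to 0.23 between deviations from group means (median 0.07). Each PVN library came from a different mouse, so the comparison within PVN holds no pairs. The scripts were tested on simulated data. The alternatives were other pseudocounts, filters, scalings, fits and covariates, and each library left out in turn.

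Genes past the threshold that have a symbol are named, and some results are not reported here. Values per library are given for the 12 largest rises and 6 largest falls (at least 5 CPM on average in the higher group). Of the lists described at length, up to 4 of the most abundant other members are given, with the genes the study followed and the 3 smallest p values of the contrast with other nuclei. Other members and other genes with values per library were picked by small p after their values were seen. The members and lists were chosen with earlier results of these data known. Promoter windows of 300 bases and their sequences are from RefSeq (GRCm38.p6), and 26 of the 33 called genes with a symbol matched.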

Additional observations from a re-analysis of the deposited data

Results flagged for a closer look

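Among 210 groups of 5 libraries, 24 held 1 library apart from the other 4 by Dixon's criterion on the log2 scale, where chance gives about 1 in 20, or 10.5. The fasted library of mouse A was the one apart in 15 of them. It was the highest for Syp (1630 CPM), Bmyc (216 CPM), Cited2 (159 CPM), Lars2 (67868 CPM), Crh (126 CPM), Scg2 (3028 CPM), Sult1a1 (28.5 CPM), Jun (69.2 CPM), Sim2 (8.32 CPM) and Ly6c1 (36.1 CPM). It was the lowest for Tardbp (116 CPM), Cirbp (36.5 CPM), Hmgcs1 (61.8 CPM), Hnrnpa1 (138.4 CPM) and Srsf2 (142 CPM).

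The fed library of mouse F, from the same batch as mouse A, was the highest for Lars2 (61250 CPM), Pdk2 (160 CPM), Ucp2 (209 CPM) and Dlk1 (1081 CPM) and the lowest for Pou3f2 (79.9 CPM), Hnrnpa1 (137.8 CPM) and Hnrnpu (282 CPM). Fed mouse H was the highest for 5330429C05Rik, at 1.43 CPM, and fed mouse I for Gpr101, at 449 CPM.

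The fasting change of Sv2c differed between nuclei by the test of the difference itself, at 1.496 on the log2 scale in PVN over the mean of ARC, DMH and VMH.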

How the results depend on the processing

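Of the 35 calls in PVN, 11 were kept in every alternative other than the fit without batch. The count was 3 without the batch covariate, 79 with library weights and 55 with log2 depth as a covariate, and 2 to 31 with each library left out in turn, falling by over 1.5 times without fasted mice B, C or E or fed mice G, H, I or J. The cause was not tested, apart from the fewer samples. It was 26 without batch 1 and 32 to 48 under the other pseudocounts, filters, scalings and fits.

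For the contrast with other nuclei, 0 genes passed without batch and 0 to 4 with each library left out, among them Stra6 without fasted mouse D (4.17) and Aard without fed mouse I (2.47). With the mouse as a replicate block 1 gene passed, Sv2c at 1.48, and the pairing changed no other call.

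Genes that did not pass in PVN but did under at least 1 alternative were Cct7, Pcsk1n, Scd1, Dlk1 and Ucp2 (library weights), Dnajb5 (0.96, adjusted p = 0.0422), Zbtb16, Kcnj8, Aard and Ucp2 (depth as a covariate), Hmgcs1 and Ucp2 (pseudocount 2, a filter of 5 CPM, robust eBayes), Hmgcs1, Scd1, Ucp2, Aard and Gabrg3 (all 41 libraries in 1 fit) and Ucp2 (without fasted mouse D). Quantile scaling took the features ENSMUSG00000083696 and ENSMUSG00000089855 to 0.275 and 0.102. List medians kept their sign with each library left out for glucocorticoid-responsive genes (0.75 to 0.88) and cholesterol synthesis (-0.33 to -0.19), and each other list's median moved by over 1.5 times in at least 1 such fit. It turned for developmental factors, perivascular, neuron and microglia markers, markers of other nuclei, clock, splicing, synaptic vesicle, proteasome and tubulin genes. Of the named genes, no called gene's fold change moved by over 1.5 times in these fits, but those of Atf4, Bdnf, Brs3, Cckbr, Dnajb5, Dnajc5, Elovl5, Fosl2, Gjb6, Hnrnpu, Htr2c, Irs4, Kdr, Npas4, Npy, Npy1r, Penk, Ppargc1a, Rbm3, Scd1, Scg2, Srsf2, Sult1a1, Tcp1 and Tsc22d3 did, with the sign kept.

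Among named genes, none of those below passed the test in PVN, apart from Lars2, whose change became -4.7e-16 on quantile scaling, where the most abundant gene is tied by construction. Signs turned for Crh (0.0058 with a pseudocount of 2, 0.11 with depth), Pclo, Ntrk2, Hnrnpa3, Fosl2 and Egr1 with library weights (0.029, 0.035, -0.052, 0.011 and 0.023), and Syt11, Pclo, Ntrk2, Hnrnpa3 and Jund without batch 1 (-0.010, 0.014, 0.046, -0.077 and 0.051). With each library left out, the range was -0.42 to 0.20 for Crh, -0.039 to 0.57 for Lepr, -0.27 to 0.23 for Mc4r, -0.17 to 0.029 for Scg3, -0.16 to 0.0096 for Cpe, -0.021 to 0.19 for Elovl6, -0.026 to 0.092 for Cadps, -0.013 to 0.098 for Syt11, -0.084 to 0.046 for Pclo, -0.042 to 0.046 for Ntrk2, -0.077 to 0.066 for Hnrnpa3, -0.38 to 0.051 for Jund and -0.34 to 0.078 for Egr1.

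Depth, 5 mice per group and 1 mouse per state in batch 1 limit the test, above all for low genes and small changes.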
